A study of Mus musculus with 6 samples.

Results

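The genes described here are 39 genes of the cell cycle and of DNA replication, taken from a fixed list of names. They are 39 of the 21911 protein-coding genes of the annotation used. DNA methylation was measured at them by reduced representation bisulfite sequencing (RRBS) in CD8+ T cells from mouse lymph nodes. RRBS sequences fragments cut at CCGG by the enzyme MspI after bisulfite has turned unmethylated cytosines into bases read as T, while methylated cytosines stay C. For each gene, CpGs within 2 kb of the annotated 5′ end formed the start window, and CpGs in the rest of the gene and in 10 kb on either side formed the body window. The level of a window in a library is the mean, over CpGs that reached 5 reads in each of the 6 libraries, of the share of reads that were methylated.

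The 6 libraries came from 2 WT mice, 2 mice with a human STAT5B transgene (hSTAT5B +/T) and 2 mice with the same transgene carrying the N642H change (hSTAT5B N642H +/T), all C57BL/6N and 13 weeks old. Both transgenes were driven by the Vav1 promoter, which is active throughout blood cells, and they were added to the mouse's own Stat5b. Each transgene was studied in lines chosen among several, and the hSTAT5B N642H mouse is a model of CD8+ T cell disease, so that effects of the transgene, of the line and of the disease cannot be told apart here. CD8+ T cells were enriched with magnetic beads.

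A cell entering division first loads the MCM helicase on its origins with the help of CDC6 and CDT1. Cyclins then activate CDK1 and related kinases, E2F and MYB family factors transcribe the replication genes, and Aurora and Polo kinases with the checkpoint proteins control the separation of chromosomes. STAT5 is activated by cytokines such as IL-2 and IL-7, which drive T cells to divide. Promoters rich in CpG are as a rule unmethylated in normal cells whether or not the gene is transcribed, whereas gene bodies are mostly methylated.

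All 39 genes were found in the annotation, and 37 start windows and 39 body windows held at least 3 usable CpGs and were tested. The start window of Pcna had 0 of its 118 CpGs measured, and that of Kntc1 had 1 of 110. In all, 813 of the 4507 CpGs in the start windows and 855 of the 16488 CpGs in the body windows were measured, which is 18.04% and 5.19%. RRBS reads DNA near CCGG, and the start windows held from 3 such sites, at Pcna, to 34, at Ccne1.

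The libraries listed between 2597893 and 3445555 CpGs with 43291086 to 67007186 reads on them, and the median CpG had 5 to 11 reads, the fewest in WT replicate 1. All comparisons are over 2 libraries per genotype, where an exact permutation test cannot give a p below 0.333, so that calls rest on limma, which shares the estimate of the spread across genes. Of the 6 markers of CD8+ T cells, 3 had CpGs measured in the start window. At Cd8b1, a chain of the CD8 receptor, the start window was at 37.8% and 37.8% in WT, 18.8% and 17.5% in hSTAT5B, and 8.51% and 11.8% in hSTAT5B N642H, with 6 CpGs. At Cd8a it was at 49.4% and 17.0% in WT, 18.0% and 25.2% in hSTAT5B, and 10.1% and 5.63% in hSTAT5B N642H, with 7 CpGs. Both are lowest in both hSTAT5B N642H libraries. Cd2 showed no such order, at 58.4% to 75.3% over the 6 libraries. Among markers of B cells, the start window of Cd22 was at 76.5% to 93.8% and that of Cd79b at 21.1% to 26.7%. Among markers of myeloid cells, Cd14 was at 0% to 2.08%, highest in WT replicate 2, and the single CpG of Itgam was at 45.5% to 100%. The helper T cell marker Zbtb7b was at 0.602% to 6.25%, with the highest values in both hSTAT5B N642H libraries. Natural killer cell markers had no start window measured. A level is an average over all cells of a library, so that the share of cells of each type and the methylation within a type cannot be told apart, and the part of this order at the CD8 genes in the differences below was not tested.

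The sequences that carry the results are shown first, all from GRCm38.p6. RefSeq promoters, which run from 250 bases before to 50 bases after the start, were on hand for 33 of the 39 genes. There was none for Aurkb, Mcm4, Ccna2, Ccne2, Kif20a and Foxm1. In the promoters, capitals mark the CpGs that reached 5 reads in every library, so that they show how much of each promoter was measured. Top2a (chr11:99024140-99024439, minus strand) has 16 CpGs and Kntc1 (chr5:123749476-123749775, plus strand) has 22, and no CpG of either promoter was measured. Aurka (chr2:172370521-172370820, minus strand) has 24 CpGs of which 12 were measured, and Mcm5 (chr8:75109259-75109558, plus strand) has 25 of which 6 were measured.
Top2a promoter: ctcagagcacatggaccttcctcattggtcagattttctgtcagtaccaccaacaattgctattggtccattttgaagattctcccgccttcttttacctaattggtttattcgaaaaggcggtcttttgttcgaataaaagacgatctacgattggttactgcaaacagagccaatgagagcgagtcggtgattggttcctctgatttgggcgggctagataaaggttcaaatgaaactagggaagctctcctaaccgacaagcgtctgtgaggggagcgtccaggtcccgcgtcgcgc
Kntc1 promoter: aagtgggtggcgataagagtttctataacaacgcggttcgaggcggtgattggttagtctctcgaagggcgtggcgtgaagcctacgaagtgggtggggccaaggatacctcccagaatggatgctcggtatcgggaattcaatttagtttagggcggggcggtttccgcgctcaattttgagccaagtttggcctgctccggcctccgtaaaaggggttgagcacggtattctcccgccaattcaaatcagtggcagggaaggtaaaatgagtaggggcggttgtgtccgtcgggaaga
Aurka promoter: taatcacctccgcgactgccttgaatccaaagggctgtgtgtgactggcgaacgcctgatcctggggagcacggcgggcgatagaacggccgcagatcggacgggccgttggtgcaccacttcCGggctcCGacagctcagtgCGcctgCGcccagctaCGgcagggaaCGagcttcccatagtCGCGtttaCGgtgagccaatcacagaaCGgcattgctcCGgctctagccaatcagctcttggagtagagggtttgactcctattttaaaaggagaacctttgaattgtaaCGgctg
Mcm5 promoter: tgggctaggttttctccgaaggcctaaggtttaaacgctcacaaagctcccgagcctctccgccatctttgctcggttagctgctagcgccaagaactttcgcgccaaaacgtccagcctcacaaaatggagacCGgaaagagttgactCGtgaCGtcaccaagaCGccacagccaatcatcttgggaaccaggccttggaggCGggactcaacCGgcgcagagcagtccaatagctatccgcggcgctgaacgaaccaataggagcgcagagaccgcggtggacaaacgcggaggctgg

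The next stretches surround CpGs at which the hSTAT5B N642H and WT libraries did not overlap, in 4 genes described below. Here capitals mark only the CpGs whose values are given below, with 50 bases on either side, read in the direction of the gene. They were chosen after their values were seen. The Mki67 stretch (chr7:135713341-135713479, minus strand) lies in an intron, the Ccne1 stretch (chr7:38089475-38089619, minus strand) and the Cdc6 stretch (chr11:98925898-98926121, plus strand) lie downstream of their genes, and the E2f2 stretch (chr4:136171626-136171727, plus strand) lies upstream.
Mki67 intron: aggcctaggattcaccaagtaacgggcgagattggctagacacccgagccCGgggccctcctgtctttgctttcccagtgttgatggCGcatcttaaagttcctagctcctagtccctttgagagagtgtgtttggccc
Ccne1 downstream: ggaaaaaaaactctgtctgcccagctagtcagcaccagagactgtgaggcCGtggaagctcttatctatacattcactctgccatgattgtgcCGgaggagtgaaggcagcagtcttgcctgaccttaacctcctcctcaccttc
Cdc6 downstream: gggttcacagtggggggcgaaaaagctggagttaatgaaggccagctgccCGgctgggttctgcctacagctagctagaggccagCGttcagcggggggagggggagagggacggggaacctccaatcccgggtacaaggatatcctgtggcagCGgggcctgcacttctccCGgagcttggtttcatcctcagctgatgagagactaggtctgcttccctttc
E2f2 upstream: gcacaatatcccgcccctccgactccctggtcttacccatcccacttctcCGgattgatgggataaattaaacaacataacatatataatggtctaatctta

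The 33 promoters held a median of 24 CpGs (8 to 48), against a median of 14 in the 16521 promoters of all protein-coding genes matched. Letters of 3 elements known from cell cycle promoters were searched on both strands. An E2F site, written TTTGGCGC, TTTCCCGC, TTTCGCGC or TTTGCCGC, was in 8 of the 33 promoters (24.2%), and in 2.95% of all promoters. The CHR element, written TTTGAA, was in 14 (42.4%), and in 15.6% of all. A CCAAT box was in 25 (75.8%), and in 38.8% of all. The Top2a promoter above holds 6 CCAAT boxes and 2 CHR elements. The Mcm5 promoter holds 2 E2F matches, which lie on opposite strands of the same stretch and share bases. The STAT5 palindrome TTCNNNGAA was in 1 of the 33, which is Mcm5, and in 7.81% of all promoters. CCGG was in 30 of the 33 and in 63.7% of all, and the promoters of Top2a, Mcm3 and Pcna held none. These are matches of letters in a window of 300 bases, and whether a factor binds there was not measured.

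At their measured CpGs, most of the 37 tested start windows were low in methylation in all 3 genotypes. The median level over the 37 tested start windows was 2.41% in WT, 2.33% in hSTAT5B and 2.37% in hSTAT5B N642H, against 5.72%, 5.88% and 6.19% over all 14583 genes tested. In WT, 32 of the 37 were under 10%, against 62.3% of all genes. Of the 813 single CpGs in the start windows, 738 were at 10% or less in WT, 731 in hSTAT5B and 752 in hSTAT5B N642H. Within 2 kb, levels in WT rose with distance from the start, in bins that hold different genes. In WT the mean over CpGs was 1.56% in the 250 bp before the start and 1.88% in the 250 bp after it, 4.95% from 500 to 1000 bp, and 67.02% from 1000 to 2000 bp with 17 CpGs of 5 genes. Over all genes the mean was 24.99% from 1000 to 2000 bp, in a bin that holds 35482 CpGs. With only 5 genes in that bin, these means do not compare the width of the low stretch. From 1000 to 500 bp before the start the WT mean was 8.25%, with 85 CpGs of 12 genes, against 21.67% over all genes.

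**Figure D1:**
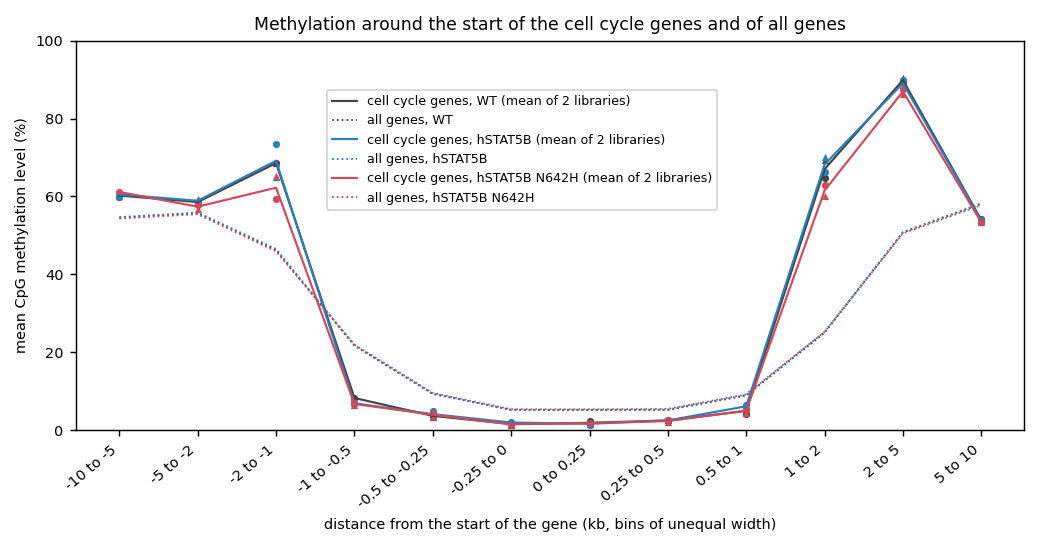
The mean CpG methylation level (%, vertical axis) is plotted against distance from the start of the gene (kb, bins of unequal width), with solid lines for the cell cycle and replication genes, dotted lines for all genes, points for single libraries and colours for genotypes. Within 500 bp of the start the cell cycle genes lie between 1.5% and 4.11% in the genotype means, and from 2 to 5 kb downstream they reach 89.9% in WT.

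The body windows were highly methylated, at a median of 90.4% in WT, 89.4% in hSTAT5B and 88.7% in hSTAT5B N642H over the 39 genes, against 85.4%, 85.4% and 84.6% over 19364 genes. The body windows of 8 genes were under 60% in WT, among them Aurkb at 19.5%, Pcna at 21.3%, Cdc20 at 24.8%, Ccnb1 at 39.0%, Mcm2 at 44.1% and Mcm7 at 46.1%. These windows include CpGs close to the starts of neighbouring genes. Without CpGs within 2 kb of another gene's start, Cdc20 was at 95.9%, Ccnb1 at 98.7%, Mcm2 at 96.4% and Mcm7 at 95.7%, and only Aurkb (30.3%) and E2f1 (50.3%) stayed under 60% in WT. The plot of levels by library shows both windows for each gene.

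**Figure D2:**
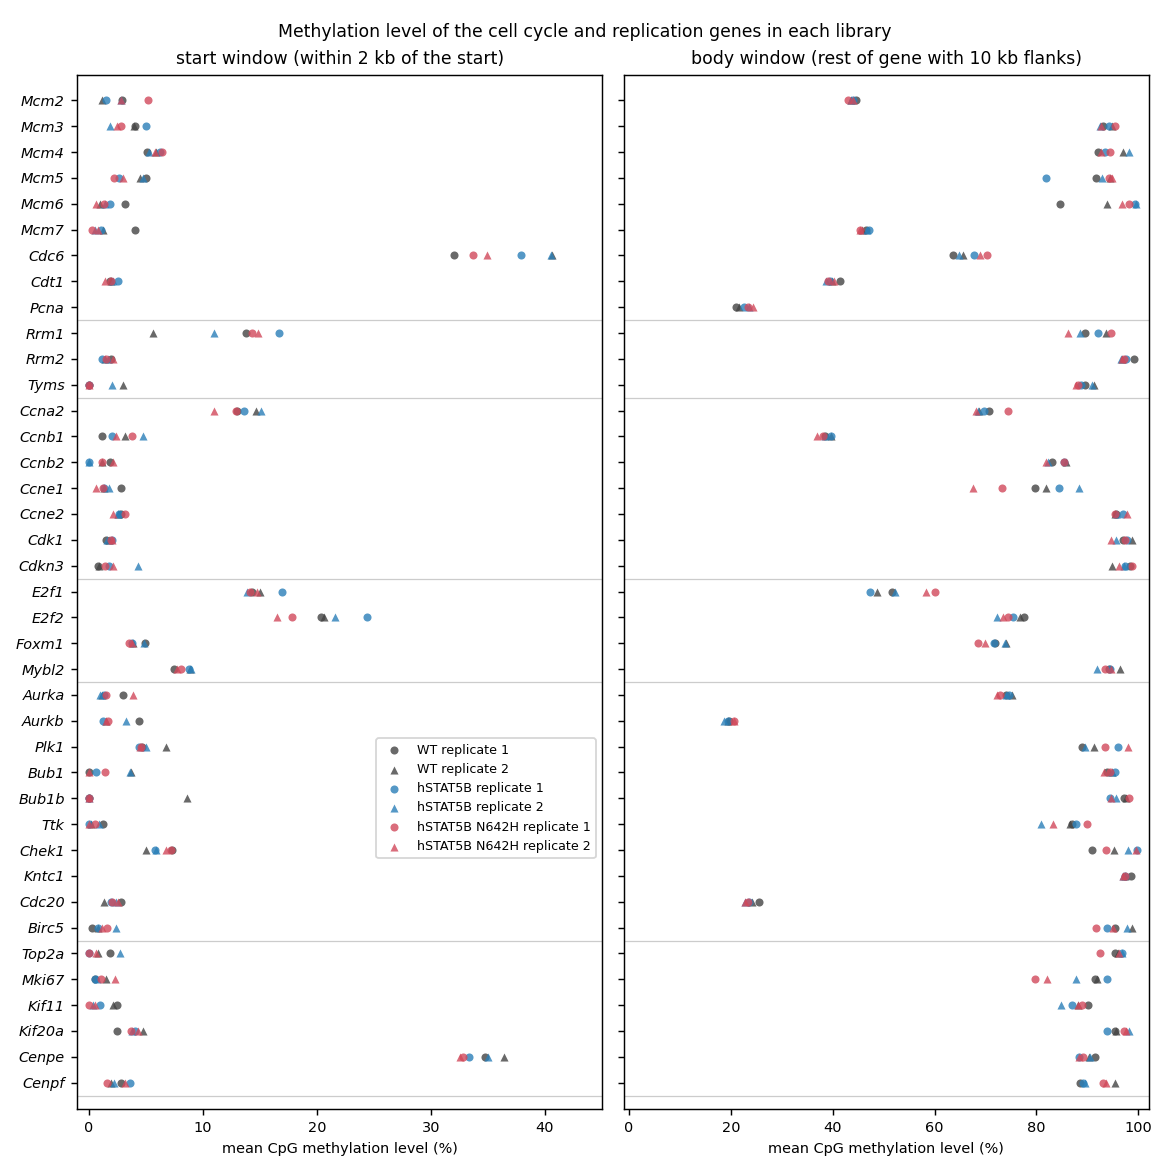
Each point is the mean CpG methylation level (%, horizontal axis) of a gene's start window (left, axis to 45%) or body window (right) in 1 library, with genes in rows grouped by role, colour for genotype and shape for replicate. Most start windows sit under 10% and most body windows above 60%, and the 6 libraries of a gene mostly lie within a few percentage points of each other.

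The first question was whether hSTAT5B N642H CD8+ T cells differed from WT at these genes. limma with Benjamini-Hochberg adjustment called 0 of the 37 start windows and 0 of the 39 body windows, as it called 0.0% of all genes in either window, with a smallest adjusted p among the 39 genes of 0.740 for start windows and 0.453 for body windows. At an unadjusted p under 0.05 there were 3 start windows, Mcm5, Ccne1 and Kif11, all lower in hSTAT5B N642H, with 6.63% of all genes past that threshold. There were 4 body windows, Mki67, Ccne1 and Mcm4 lower and Ccne2 higher, with 8.39% of all genes. The median difference over the 37 start windows was -0.267 percentage points, against 0.115 over all genes, and over the 39 body windows -0.735, against -0.474.

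Both hSTAT5B N642H libraries lay outside the range of both WT libraries in 15 of the 37 start windows, with 37.0% of all genes doing so. They were above in 4 (21.2% of all genes) and below in 11 (15.8% of all genes). For body windows this held for 18 of 39 (41.9% of all genes), with 7 above (14.0%) and 11 below (27.9%). The totals are near the background in both windows. With at least 10 reads per CpG, which changes the CpGs and genes used, 15 of 33 start windows did not overlap (37.1% of all genes). Of these, 9 were above and 6 below WT, so that the direction in start windows changed with the setting. The split by direction over all genes was not counted at that setting. No start window differed by 5 percentage points or more between the means, where 8.11% of all genes did. Such a difference was found in 6 body windows (7.29% of all genes), at Mki67 and Ccne1, which were lower, and at E2f1, Mcm6, Plk1 and Cdc6, which were higher. The plot of differences gives each gene's value with its spread over library pairs.

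**Figure D3:**
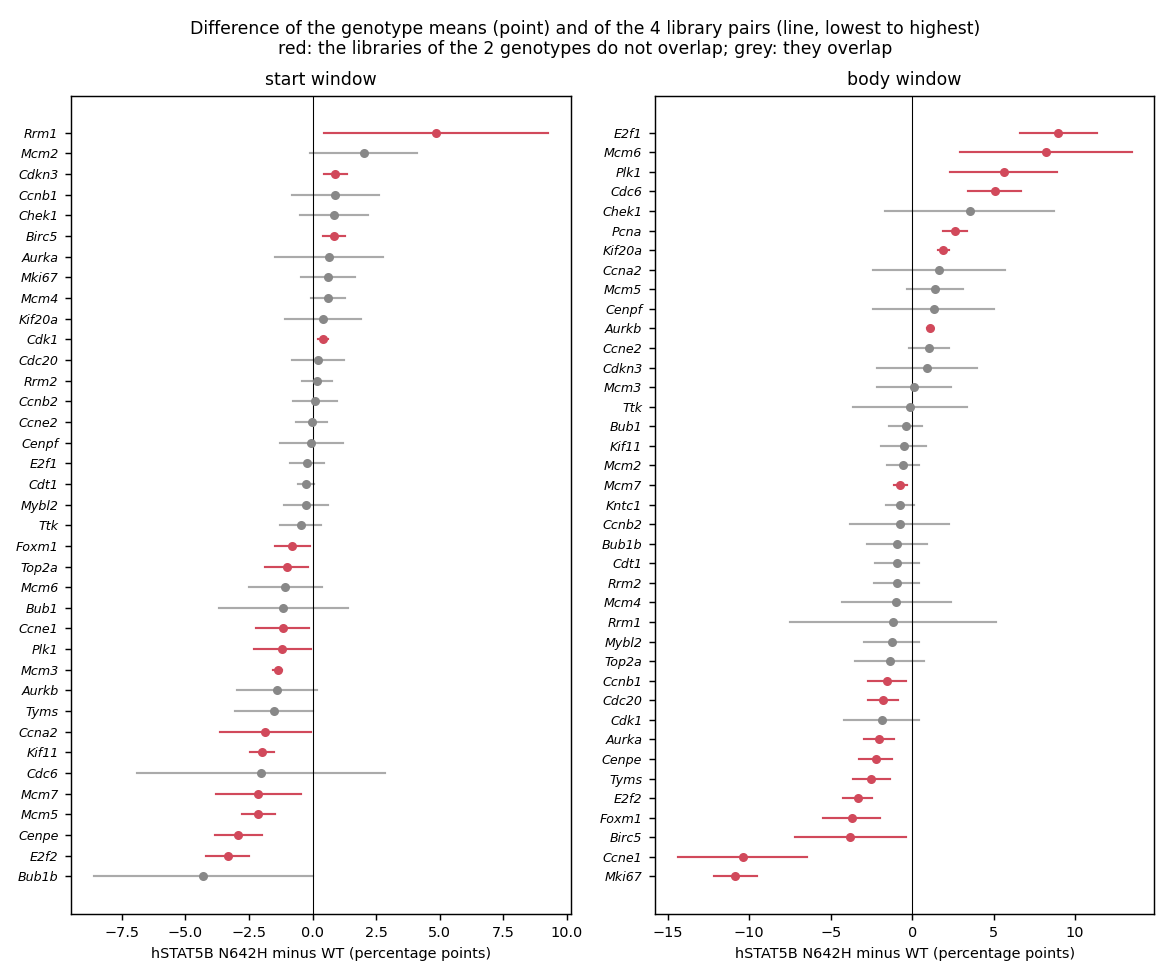
The difference between hSTAT5B N642H and WT (percentage points, horizontal axis) is shown for each gene in the start window (left) and body window (right), as a point for the genotype means and a line from the lowest to the highest of the 4 library pairs, in red where the libraries of the 2 genotypes do not overlap. Start windows range from -4.30 at Bub1b to 4.85 at Rrm1, and body windows from -10.8 at Mki67 to 8.98 at E2f1.

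Replication licensing was represented by Mcm2 to Mcm7, which encode the replicative helicase, by Cdc6 and Cdt1, which load it, and by Pcna, the sliding clamp. Of the 8 start windows tested, 6 were lower and 2 higher in hSTAT5B N642H by the mean, with 6736 of all 14583 genes lower. In both libraries 3 (Mcm3, Mcm5 and Mcm7) were below WT and 0 above, with 15.8% of all genes below and 21.2% above. Mcm5 (ENSMUSG00000005410.6) was at 5.01% and 4.48% in WT, 2.67% and 4.74% in hSTAT5B, and 2.22% and 2.98% in hSTAT5B N642H, over 13 CpGs with 269 to 610 reads per library. The hSTAT5B N642H libraries were below both WT libraries and overlapped with hSTAT5B. The difference of -2.14 percentage points was -1.19 ± 0.434 (SE) on the log2 ratio of methylated to unmethylated reads (limma, adjusted p = 0.740), and the difference was -1.76 to -3.42 points when single libraries were left out.

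Cdc6 (ENSMUSG00000017499.15) had the highest start window of the 37 in WT, and 6 of its 8 measured CpGs lay 933 to 1312 bp inside the gene, where levels were intermediate. The window was at 32.0% and 40.6% in WT, 37.9% and 40.5% in hSTAT5B, and 33.7% and 34.9% in hSTAT5B N642H. The WT libraries enclose the hSTAT5B N642H libraries (limma, adjusted p = 0.802). The sign depended on the CpGs used, at -25.9 points with at least 10 reads per CpG and 12.3 within 1 kb of the start. CpGs inside the gene, named here after their values were seen, went both ways. The CpG 1273 bp downstream of the start, in an intron at chr11 position 98909074, was methylated in 10 of 11 and 27 of 33 reads in WT, 18 of 34 and 14 of 16 in hSTAT5B, and 8 of 21 and 17 of 29 in hSTAT5B N642H. The CpG at 98908760, in a coding exon 959 bp from the start, was methylated in 1 of 9 and 9 of 26 reads in WT and in 12 of 27 and 6 of 13 in hSTAT5B N642H.

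The Cdc6 body window was at 63.5% and 65.5% in WT, 67.8% and 64.7% in hSTAT5B, and 70.2% and 68.9% in hSTAT5B N642H, a difference of 5.06 points between hSTAT5B N642H and WT (limma, adjusted p = 0.810). This value rests on CpGs close to the start of Rara, a neighbouring gene. Without CpGs within 2 kb of another gene's start the difference was 1.07, and over the gene alone it was -0.186. Of the 4 CpGs in capitals in the Cdc6 stretch, the one at 98925983 was methylated in 5 of 16 and 4 of 13 reads in WT, 20 of 37 and 6 of 9 in hSTAT5B, and 33 of 39 and 40 of 47 in hSTAT5B N642H. The one at 98925948 was methylated in 9 of 22 and 6 of 13 reads in WT, 30 of 37 and 8 of 14 in hSTAT5B, and 33 of 40 and 43 of 50 in hSTAT5B N642H. At both, the mean of hSTAT5B lay between WT and hSTAT5B N642H. The other CpGs in capitals did not share this order in every library. At 98926052, 8 of 12 and 3 of 5 reads were methylated in WT, 5 of 10 and 5 of 8 in hSTAT5B, and 14 of 14 and 14 of 15 in hSTAT5B N642H. At 98926070, 8 of 39 and 4 of 20 reads were methylated in WT, 10 of 17 and 4 of 20 in hSTAT5B, and 16 of 30 and 22 of 34 in hSTAT5B N642H.

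Mcm6 (ENSMUSG00000026355.11) had a body window at 84.7% and 93.8% in WT, 99.3% and 99.5% in hSTAT5B, and 98.1% and 96.8% in hSTAT5B N642H, over 8 CpGs. Both transgenic genotypes were above both WT libraries, by 10.2 points for hSTAT5B and 8.21 for hSTAT5B N642H (limma, adjusted p = 0.769 and 0.600). Without WT replicate 1, the library with the fewest reads at the median CpG, the hSTAT5B N642H value was 3.63, and without WT replicate 2 it was 12.8. The intron CpG at chr1 position 128343956 was methylated in 13 of 19 and 9 of 12 reads in WT and in every read of the 4 transgenic libraries, which had 10, 23, 22 and 19 reads. For Mcm2, Mcm3, Mcm4, Mcm7 and Cdt1 the body windows differed by -0.973 to 0.0986 points.

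Nucleotide supply was represented by Rrm1 and Rrm2, the subunits of ribonucleotide reductase, and Tyms, which makes thymidylate. Rrm1 (ENSMUSG00000030978.10) had the largest positive difference of a start window, at 13.8% and 5.6% in WT, 16.7% and 10.97% in hSTAT5B, and 14.3% and 14.8% in hSTAT5B N642H, over 7 CpGs. Only WT replicate 2 was well below the hSTAT5B N642H libraries, and the difference of 4.85 points was 0.734 without it (limma, adjusted p = 0.921 with all 6 libraries). Rrm2 was at 1.18% to 2.15% in all 6 libraries. Tyms had 3 CpGs and was at 0% in 4 of the 6 libraries, where 21 to 51 reads allow up to 14.3% to 5.88%.

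Among the cyclins, Ccna2 acts in S phase, Ccnb1 and Ccnb2 in mitosis, and Ccne1 and Ccne2 at the entry into S phase, Cdk1 is the kinase of mitosis and Cdkn3 is a phosphatase that acts on such kinases. Of the 7 start windows, 2 were above and 2 below WT in both hSTAT5B N642H libraries (21.2% and 15.8% of all genes). Ccna2 (ENSMUSG00000027715.9) was at 13.0025% and 14.6% in WT, 13.7% and 15.1% in hSTAT5B, and 12.9% and 10.99% in hSTAT5B N642H, over 33 CpGs (limma, adjusted p = 0.925). Replicate 1 of hSTAT5B N642H was just under the lower WT library, and the difference of -1.85 points was -0.595 within 1 kb of the start and -2.82 to -0.879 when single libraries were left out, lowest without hSTAT5B N642H replicate 1 and nearest to 0 without hSTAT5B N642H replicate 2. The Ccna2 CpG with the largest gap, in an intron 1772 bp from the start, was methylated in 34 of 35 and 52 of 60 reads in WT, 34 of 38 and 44 of 47 in hSTAT5B, and 29 of 37 and 48 of 76 in hSTAT5B N642H.

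Ccnb2 was the start window with the smallest adjusted p between the 2 transgenic genotypes. It was at 1.91% and 1.19% in WT, 0% and 0% in hSTAT5B and 1.15% and 2.16% in hSTAT5B N642H. The hSTAT5B libraries had 177 and 138 reads on its 12 CpGs, which allows up to 1.69% and 2.17%. The limit of 1.69% in replicate 1 lies above 1.19% and 1.15% but below 1.91% in WT and 2.16% in hSTAT5B N642H. That of 2.17% in replicate 2 lies above each of these levels. The difference did not pass the test (limma, adjusted p = 0.748), and the part of depth in it was not tested.

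Ccne1 (ENSMUSG00000002068.16, chr7:38097984-38107534, minus strand) had the largest difference of the cyclins. Its body window was at 79.7% and 81.9% in WT, 84.5% and 88.3% in hSTAT5B, and 73.3% and 67.5% in hSTAT5B N642H, over 11 CpGs with 269 to 506 reads. Both hSTAT5B N642H libraries were below WT and both hSTAT5B libraries were above it. The difference between hSTAT5B N642H and WT was -10.4 points, or -1.08 ± 0.258 (SE) on the log2 ratio (limma, adjusted p = 0.484), and that to hSTAT5B was -16.1 points, or -1.46 ± 0.258 (adjusted p = 0.456). It was -7.52 to -13.3 points against WT when single libraries were left out, and -12.0 over the gene alone.

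The Ccne1 CpGs that were lower lie in an intron and downstream of the gene. At position 38089568, the first CpG in capitals of the Ccne1 stretch as printed, 13 of 16 and 43 of 71 reads were methylated in WT, 38 of 54 and 35 of 56 in hSTAT5B, and 16 of 45 and 9 of 32 in hSTAT5B N642H. That is 81.3% (exact 95% binomial interval 54.4% to 96.0%) and 60.6% in WT, and 35.6% (21.9% to 51.2%) and 28.1% in hSTAT5B N642H. At 38089525, the second CpG in capitals, 31 of 49 and 47 of 72 reads were methylated in WT, 43 of 54 and 39 of 59 in hSTAT5B, and 42 of 84 and 24 of 77 in hSTAT5B N642H. At 38101851, in an intron, 23 of 25 and 15 of 17 reads were methylated in WT, 9 of 11 and 20 of 20 in hSTAT5B, and 19 of 27 and 12 of 23 in hSTAT5B N642H. At 5 CpGs 6068 to 8130 bp upstream, the differences went both ways, from -9.44 to 14.9 points. The Ccne1 start window, over 59 CpGs, was at 2.87% and 1.37% in WT, 1.32% and 1.82% in hSTAT5B, and 1.24% and 0.663% in hSTAT5B N642H (limma, adjusted p = 0.740).

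Of the transcription factors, E2f1 and E2f2 switch on replication genes, and Foxm1 and Mybl2 switch on mitotic genes. All 4 start windows were lower in the mean in hSTAT5B N642H, by 0.213 to 3.33 points, with 6736 of all 14583 genes lower. In both libraries 2 were below WT (15.8% of all genes), and the other 2 overlapped with WT. E2f2, whose gene starts at chr4 position 136172394, was at 20.3% and 20.6% in WT, 24.4% and 21.6% in hSTAT5B, and 17.9% and 16.5% in hSTAT5B N642H, over 25 CpGs with 369 to 703 reads. The 3 genotypes did not overlap, with hSTAT5B N642H lowest and hSTAT5B highest, yet the difference of -3.33 points to WT did not pass the test (limma, adjusted p = 0.865). It was -1.37 without hSTAT5B replicate 2, whose removal brings in further CpGs, -0.436 with at least 1 read per CpG, and -10.1 with reads pooled over the window. Without the CpG at 136171676, chosen after its values were seen, it was -1.12 over the other 24 CpGs. There the difference between hSTAT5B and WT was 4.07.

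The E2f2 CpGs with the largest gaps lie in the methylated shore upstream of the start. At position 136171676, 718 bp upstream and in capitals in the E2f2 stretch, 22 of 34 and 17 of 19 reads were methylated in WT, 13 of 25 and 7 of 21 in hSTAT5B, and 2 of 9 and 5 of 26 in hSTAT5B N642H. At 136170450, 1944 bp upstream, 80 of 85 and 78 of 84 reads were methylated in WT, 79 of 90 and 75 of 82 in hSTAT5B, and 76 of 110 and 73 of 101 in hSTAT5B N642H. All 4 libraries without the N642H change were thus above both libraries with it at the second, deeply read CpG. At both CpGs the hSTAT5B libraries were below both WT libraries, unlike in the whole window. In the 500 bp after the start most E2f2 CpGs were at 0% in most libraries.

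E2f1 had a start window at 14.3% and 15.0% in WT, 16.9% and 13.9% in hSTAT5B, and 14.1% and 14.7% in hSTAT5B N642H, where the genotypes overlap. Its body window was higher in hSTAT5B N642H by 8.98 points, at 51.7% and 48.7% in WT, 47.2% and 52.1% in hSTAT5B, and 60.1% and 58.3% in hSTAT5B N642H. This value depended on which CpGs were used. It was 1.63 with at least 1 read, -1.54 with at least 10 reads per CpG and 2.39 with reads pooled over the window, and 2.23 without hSTAT5B replicate 2 (limma, adjusted p = 0.903 for the window as defined). The CpG with the largest gap, at chr2 position 154577072 and 7180 bp upstream of the start, was methylated in 2 of 7 and 10 of 27 reads in WT, 5 of 13 and 8 of 9 in hSTAT5B, and 19 of 21 and 10 of 14 in hSTAT5B N642H. The Foxm1 body window was at 71.8% and 74.0% in WT, 71.7% and 73.9% in hSTAT5B, and 68.5% and 69.9% in hSTAT5B N642H (limma, adjusted p = 0.794).

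The mitotic kinases and checkpoint genes include Aurka and Aurkb, the Aurora kinases of the spindle poles and of the centromeres. Aurkb (chr11:69045647-69051664, plus strand) had a start window at 4.43% and 1.51% in WT, 1.28% and 3.29% in hSTAT5B, and 1.68% and 1.48% in hSTAT5B N642H, over 8 CpGs with 117 to 330 reads. The genotypes overlap, and the difference of -1.39 points rested on WT replicate 1 (limma, adjusted p = 0.831), since it was 0.0675 without that library. Its body window was at 19.6% and 19.4% in WT, 19.5% and 18.7% in hSTAT5B, and 20.5% and 20.7% in hSTAT5B N642H, a difference of 1.10 points over 70 CpGs that was -1.84 over the gene alone (limma, adjusted p = 0.926). Aurka (chr2:172356190-172370535, minus strand) had a start window at 3.04% and 1.13% in WT, 1.30% and 0.994% in hSTAT5B, and 1.56% and 3.90% in hSTAT5B N642H, over 25 CpGs (limma, adjusted p = 0.948). Its body window was at 74.0% and 75.3% in WT, 74.6% and 74.0% in hSTAT5B, and 72.9% and 72.3% in hSTAT5B N642H. The difference of -2.04 points at Aurka did not pass the test (limma, adjusted p = 0.921) and was 0.740 with at least 10 reads per CpG.

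Kntc1 encodes a protein that brings checkpoint factors to the kinetochore. Its start window had a single usable CpG, at chr5 position 123749446 and 270 bp upstream, and was not tested. It was methylated in 4 of 9 and 7 of 11 reads in WT, 6 of 6 and 8 of 11 in hSTAT5B, and 6 of 7 and 5 of 7 in hSTAT5B N642H. Both transgenic genotypes lay above WT in the mean, but the exact 95% binomial intervals of the 6 libraries all overlap, from 13.7% to 78.8% in WT replicate 1 and from 42.1% to 99.6% in hSTAT5B N642H replicate 1. The Kntc1 body window, over 36 CpGs, was at 98.6% and 97.3% in WT, 97.4% and 97.0% in hSTAT5B, and 97.4% and 97.0% in hSTAT5B N642H (limma, adjusted p = 0.659).

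Plk1, the Polo kinase of mitotic entry, had a body window at 89.0% and 91.2% in WT, 96.0% and 89.5% in hSTAT5B, and 93.6% and 97.9% in hSTAT5B N642H. The difference of 5.63 points was -0.318 with at least 10 reads per CpG and 2.02 without WT replicate 1, and the CpG with the largest gap, at 122173709, had 1 of 6 and 4 of 6 reads methylated in WT and all reads, 6 and 7, in hSTAT5B N642H (limma, adjusted p = 0.791). Bub1b, a spindle checkpoint kinase, had the largest negative difference of a start window, -4.30 points, but only WT replicate 2 had any methylated read, at 8.60%, against 0% in the other 5 libraries. Those 5 libraries had 22 to 48 reads, which allow up to 13.6% to 6.25%, so that levels under these limits cannot be told from 0%. Of the remaining genes of this group, Birc5, Bub1, Cdc20, Chek1 and Ttk had start windows that differed by -1.15 to 0.85 points.

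The last genes act on chromosome structure and movement, with Top2a, which untangles DNA, the kinesins Kif11 and Kif20a, the centromere proteins Cenpe and Cenpf, and Mki67, the Ki-67 protein that coats mitotic chromosomes. Top2a (chr11:98992943-99024189, minus strand) was at 1.85% and 0.833% in WT, 0% and 2.78% in hSTAT5B, and 0% and 0.641% in hSTAT5B N642H in its start window. These 6 CpGs lie 194 to 435 bp inside the gene and had 68 to 230 reads per library, and the 2 libraries at 0% allow up to 1.83% and 1.30%. Both hSTAT5B N642H libraries were below both WT libraries, while the hSTAT5B libraries spanned the range of all 6. The difference of -1.02 points to WT did not pass the test (limma, adjusted p = 0.854) and was 2.74 without hSTAT5B replicate 2 and 1.99 with at least 1 read per CpG, both of which bring in further CpGs. The Top2a body window was at 95.5% and 96.0% in WT, 96.8% and 96.8% in hSTAT5B, and 92.6% and 96.2% in hSTAT5B N642H. Only hSTAT5B N642H replicate 1 was low, and the CpG 5321 bp upstream was methylated there in 16 of 30 reads and in 37 of 39 in replicate 2.

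Kif11 had a start window at 2.52% and 2.10% in WT, 0.988% and 0.337% in hSTAT5B, and 0.0617% and 0.582% in hSTAT5B N642H. All 4 transgenic libraries were below both WT libraries, by 1.65 points for hSTAT5B and 1.99 for hSTAT5B N642H in the means (limma, adjusted p = 0.942 and 0.740). Most of this came from the CpG at chr19 position 37376691, methylated in 2 of 7 and 3 of 11 reads in WT and in 0 of 6 to 0 of 9 in the 4 transgenic libraries. Without that CpG, chosen after its values were seen, Kif11 differed by -0.101 and -0.461 points over the other 17 CpGs. Cenpe was at 34.8% and 36.4% in WT, 33.3% and 35.0% in hSTAT5B, and 32.8% and 32.6% in hSTAT5B N642H. Its window mixes 4 CpGs within 64 bp of the start, near 0%, with 2 intron CpGs near 100%, and the largest gap behind the difference of -2.91 points was at the CpG 64 bp inside the gene, methylated in 2 of 23 and 6 of 51 reads in WT and in 0 of 35 and 0 of 35 in hSTAT5B N642H. The Cenpe test did not pass (limma, adjusted p = 0.932).

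Mki67 (ENSMUSG00000031004.8, chr7:135689784-135716361, minus strand) had the largest difference between hSTAT5B N642H and WT of all 39 genes. Its body window was at 91.6% and 91.8% in WT, 93.8% and 87.7% in hSTAT5B, and 79.7% and 82.0% in hSTAT5B N642H, over 10 CpGs with 175 to 313 reads. Both hSTAT5B N642H libraries were below all 4 other libraries. The difference to WT was -10.8 points, or -1.80 ± 0.384 (SE) on the log2 ratio, and that to hSTAT5B was -9.89 points, or -1.69 ± 0.384, and neither passed (limma, adjusted p = 0.453 and 0.514). The difference to WT was -9.15 to -12.0 points when single libraries were left out. It was -2.44 with at least 1 read per CpG, which brings in thinly read CpGs, and -15.0 with reads pooled over the window. Without the CpG at 135713428, chosen after its values were seen, it was -6.57 over the other 9 CpGs. Those 9 still include the CpG at 135713391, with a difference of -41.2 points.

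The largest gaps were at 2 CpGs in capitals in the Mki67 stretch, 37 bp apart in an intron and 2933 and 2970 bp downstream of the start. At 135713428, 13 of 20 and 14 of 19 reads were methylated in WT, 10 of 15 and 8 of 13 in hSTAT5B, and 7 of 34 and 6 of 31 in hSTAT5B N642H. In percent this is 65.0% (exact 95% binomial interval 40.8% to 84.6%) and 73.7% (48.8% to 90.9%) in WT, and 20.6% (8.70% to 37.9%) and 19.4% (7.45% to 37.5%) in hSTAT5B N642H. At 135713391, 13 of 20 and 12 of 19 reads were methylated in WT, 13 of 15 and 8 of 12 in hSTAT5B, and 6 of 33 and 8 of 29 in hSTAT5B N642H. The 2 CpGs had nearly the same reads in each library, as CpGs on the same fragment do, and are not independent.

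At the other 8 CpGs of the Mki67 body window the levels differed by -12.7 to 3.6 points, and 6 of them were at 92.9% or more in both WT libraries and lie between 6760 and 36435 bp from the start. The Mki67 start window, over 22 CpGs, was at 0.592% and 1.53% in WT, 0.539% and 0.697% in hSTAT5B, and 1.07% and 2.28% in hSTAT5B N642H, where the genotypes overlap (limma, adjusted p = 0.832).

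**Figure D4:**
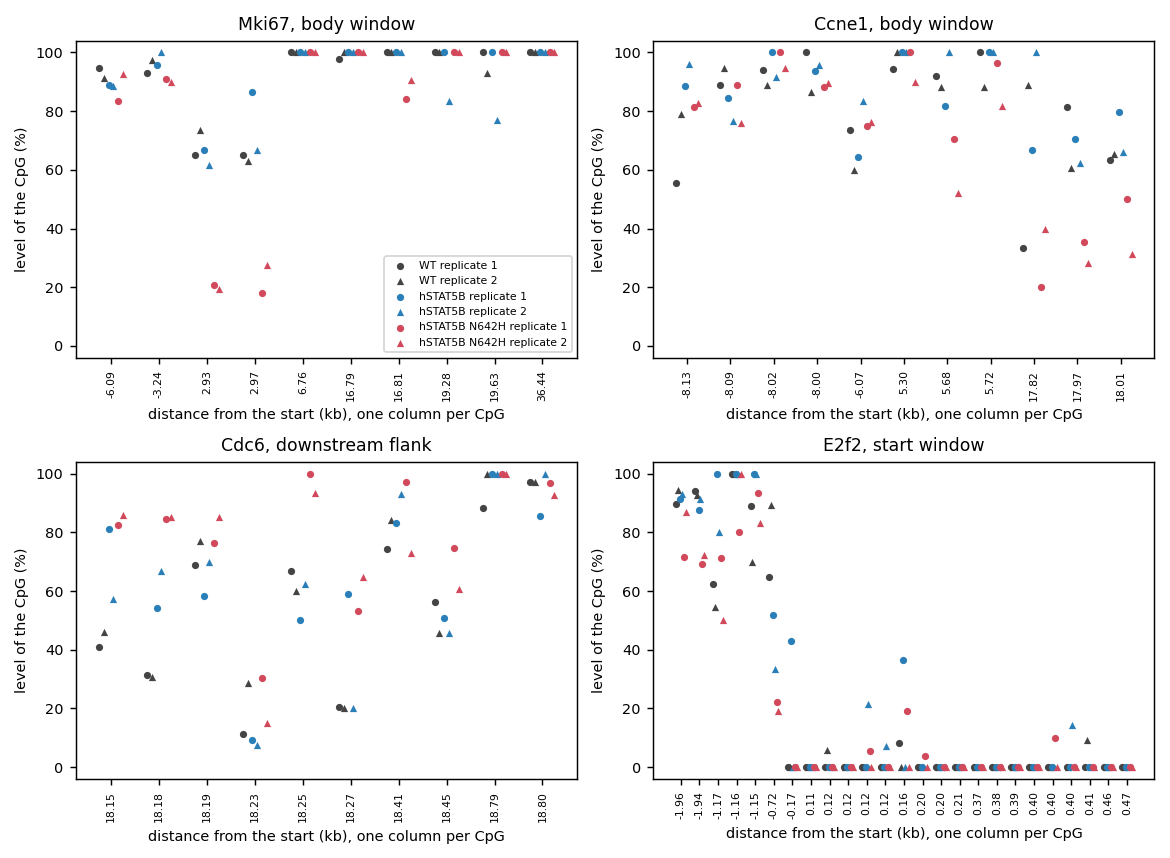
The level of single CpGs (%, vertical axis) is shown for each library, with 1 column per CpG ordered by distance from the start (kb), for the body windows of Mki67 and Ccne1, a downstream part of Cdc6 and the start window of E2f2. At the Mki67 CpGs 2.93 and 2.97 kb from the start both hSTAT5B N642H libraries lie at 18.2% to 27.6% and the other 4 libraries at 61.5% to 86.7%.

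Single CpGs were then compared across all of the genes. Of the 813 start window CpGs, 12 in 9 genes had non-overlapping libraries and means at least 20 points apart between hSTAT5B N642H and WT (1.48%, against 1.67% of all start window CpGs), with 5 higher and 7 lower. Of the 855 body window CpGs, 25 in 17 genes did so (2.92%, against 3.28% of all body window CpGs), with 9 higher and 16 lower. These shares are near the background. In a limma model of each CpG, 0 of the 1668 CpGs was called, as 0.0% of all 1192344 CpGs, and 37 and 60 of them had an unadjusted p under 0.05 in start and body windows (4.55% and 7.02%, against 6.28% of all CpGs). The 2 Mki67 CpGs had adjusted p values of 0.728 and 0.728 (limma). A quasi-binomial model of the reads called 0.886% of all CpGs and 15 of the 1668, which is near that share. The spread in this model was not held at or above counting error. A genotype with no read or every read methylated added 0 to it, so that p can be too small at such CpGs. The smallest adjusted p of this model, 0.00727, was shared by the Mcm7 CpG at 138178378, the Kif11 CpG at 37376691 and the Cenpe CpG at 135209770. Of these, the Kif11 CpG had an adjusted p of 0.740 in limma. This Mcm7 CpG was methylated in every read of the 4 libraries without the N642H change and in 66 of 70 and 62 of 66 reads with it. Also called were the Mki67 CpG at 135713428 (adjusted p = 0.0413), the Cdc6 CpG at 98925983 (adjusted p = 0.0388) and the Mcm6 CpG at 128343956 (adjusted p = 0.0215).

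The next question was whether the transgene without the N642H change differed from WT. limma called 0 of the 37 start windows and 0 of the 39 body windows (0.0% of all genes in either). At an unadjusted p under 0.05 there was 1 start window, Ccnb2, with 5.88% of all genes past it, and there were 2 body windows, Chek1 and Mcm6, with 5.87% of all genes. The libraries did not overlap in 7 start windows (18.9%, against 32.8% of all genes) and in 13 body windows (33.3%, against 33.4%). The median difference was -0.101 points in start windows and -0.537 in body windows, against 0.0775 and 0.113 over all genes.

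Between the 2 transgenic genotypes, limma again called 0 of the 37 and 0 of the 39 windows (0.0% of all genes in either). The libraries did not overlap in 13 start windows (35.1%, against 36.9% of all genes) and in 16 body windows (41.0%, against 42.4%). At an unadjusted p under 0.05 there was 1 start window (6.41% of all genes), again Ccnb2. There were 7 body windows (8.8% of all genes), of which Ccne1, Cenpe, Mcm4, Mki67 and Top2a were lower and Bub1b and Kif11 higher in hSTAT5B N642H. The median difference was -0.348 points in start windows and 0.00267 in body windows, against 0.0294 and -0.585 over all genes. The libraries of the 2 transgenic genotypes lay on opposite sides of both WT libraries in 1 start window, E2f2 (2.44% of all genes did so), and in 2 body windows, Ccne1 and Mcm7 (3.25% of all genes). Both comparisons with WT share the WT libraries, and both with hSTAT5B N642H share its libraries.

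A further 75 genes of the cell cycle and of replication, such as Cdc45, the Gins genes and the origin recognition genes, were taken as a list of their own. Of these, 69 start windows and 71 body windows were tested, and limma called 0 in any comparison. Between hSTAT5B N642H and WT, 5 start windows had an unadjusted p under 0.05 (7.25%, against 6.63% of all genes), with 3 higher and 2 lower. So did 5 body windows (7.04%, against 8.39% of all genes), with 1 higher and 4 lower. Over all genes, 1176 of the 1625 body windows past that threshold were lower. The median level of the start windows in WT was 2.68%, and the median difference was -0.230 points in start windows and -0.484 in body windows. The gene with the largest difference was Prc1, which bundles the microtubules of the central spindle. Its start window, over 5 CpGs, was at 26.2% and 28.7% in WT, 27.0% and 25.1% in hSTAT5B, and 14.3% and 11.7% in hSTAT5B N642H, where both hSTAT5B N642H libraries were below the other 4 (limma, adjusted p = 0.740). Of the body windows it was Fen1, the flap nuclease of the lagging strand, at 91.4% and 88.5% in WT, 91.1% and 88.7% in hSTAT5B, and 85.9% and 83.9% in hSTAT5B N642H (limma, adjusted p = 0.584).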

How the data were processed

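RRBS libraries of CD8+ T cells from 2 WT, 2 hSTAT5B and 2 hSTAT5B N642H mice were used. Trimming with Trimmomatic, alignment to GRCm38 (mm10) with BSMAP and the step to methylation values in custom Python code were done by the authors, and versions are not given in the sources used here. As deposited by the authors, each CpG has its methylated and total read counts without normalization. A score that the authors deposited beside them, the methylated share on a scale to 1000, served to check these counts. The reads carry no molecular identifiers, so that exact binomial intervals and limits for a count of 0 (3 counts over the reads) cover counting error only.

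Genes and 5′ ends were those of GENCODE for GRCm38, with 27 repeated symbols left out. For windows with at least 3 CpGs, the log2 ratio of methylated to unmethylated reads, with 1 added to each, entered 1 limma model of all 6 libraries, with Benjamini-Hochberg adjustment over all genes at 0.05. The reads of a window are summed over its CpGs, so that a read over several CpGs counts at each. The limma p-values rest on the spread between the 2 mice of a genotype, pooled over the 3 genotypes and drawn toward the spread shared across genes. A p that misses the threshold does not show that values did not differ. Members and lists were chosen with earlier results of these data known. Values per library are given for 4 genes listed by name (Kntc1, Top2a and Aurkb, which the study's text names, and Aurka), the 5 with the largest difference between hSTAT5B N642H and WT in each window, any gene called and those with a start window above 10% in WT. For these genes up to 2 single CpGs with non-overlapping libraries and the largest gap are named, and of the further cell cycle list only the gene with the largest difference in each window. Ccnb2, Kif11, Foxm1 and all other values outside these rules were added after they were seen, as were the fits of single CpGs and their threshold of 20 points.

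Not every measured gene of the marker lists is reported here. The code was tested on simulated data. The alternatives were 1 or 10 reads per CpG, 5 CpGs per window, reads pooled over a window, a start window of 1 kb, the gene alone, the start of the principal transcript, CpGs near other starts or of at least 1000 reads left out, each library left out, an offset of 0.5, a variance trend, only the genotypes compared, levels in percent, a quasi-binomial model and the replicate number as a term. Samples with the same replicate number did not deviate together, with correlations of -0.0255 to 0.0288. R 4.3.3 with limma 3.58.1, and Python 3.11.15 with pandas 2.3.3, numpy 2.4.6, matplotlib 3.10.9 and scipy 1.17.1, were used.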

Additional observations from a re-analysis of the deposited data

Results flagged for a closer look

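In 3 windows both hSTAT5B N642H libraries lay on one side of both WT libraries and both hSTAT5B libraries lay on the other side. Over all genes, 2.44% of start windows and 3.25% of body windows did so. For the body window of Ccne1 the difference between hSTAT5B N642H and hSTAT5B was -16.1 percentage points. For the start window of E2f2 it was -5.86 points, and for the body window of Mcm7 it was -1.47 points, with Mcm7 at 46.5% and 45.8% in WT, 47.1% and 46.7% in hSTAT5B, and 45.4% and 45.4% in hSTAT5B N642H. That the transgenes move in opposite directions from WT was not tested. The direct comparison between them did not pass for Ccne1, E2f2 or Mcm7 (limma, adjusted p = 0.456, 0.852 and 0.946).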

How the results depend on the processing

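None of the 39 genes was called under any alternative, the quasi-binomial model included. Counts over all genes moved from 0 with limma on levels in percent, to 4 for start windows of hSTAT5B N642H against WT, and with the quasi-binomial model, to 12 and 17 for start and body windows of that comparison, 4 and 26 for hSTAT5B N642H against hSTAT5B and 1 for body windows of hSTAT5B against WT. With the replicate block, 0 genes were called in all 6 comparisons. The replicate numbers only name the libraries, and the block changed no call.

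The median difference of the start windows between hSTAT5B N642H and WT (-0.267) was -0.448 and -0.450 with at least 1 and 10 reads per CpG, -0.472 within 1 kb, -0.686 with pooled reads and -0.533 to -0.198 without single libraries. For hSTAT5B against WT (-0.101) it was 0.00885 with at least 10 reads, 0.0332 within 1 kb, 0.0463 with at least 5 CpGs and -0.187 to 0.123 without single libraries. For hSTAT5B N642H against hSTAT5B (-0.348) it was -0.0875 with at least 1 read and -0.610 to 0.0 without single libraries. For body windows, the first (-0.735) was 0.153 with pooled reads and -1.03 to -0.167 without single libraries. The second (-0.537) was 0.0254 with at least 10 reads, 0.866 with pooled reads and -0.906 to 0.224 without single libraries. The third (0.00267) was -0.792 with at least 1 read, -0.535 with pooled reads and -0.617 to 0.287 without single libraries. The cause was not tested. Without WT replicate 1 the hSTAT5B N642H and WT libraries did not overlap in 26 of 37 start windows (69.1% of all genes) and 27 of 39 body windows (73.1% of all genes), since 1 library is then compared with 2. Values of named genes were counted together with the counts of non-overlapping windows and of single CpGs called. Of these, 73 moved and 370 did not. A value of a named gene was taken as moved at a change of at least the spread between replicates. Depth limits start windows of few CpGs, as at Bub1b and Tyms.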
